A study of Schizosaccharomyces pombe with 4 samples.

Results

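The 26S proteasome degrades proteins that carry ubiquitin chains. Its 20S core particle holds the proteolytic sites inside a barrel of alpha and beta rings. The 19S regulatory particle caps the barrel and is built from a base, which unfolds substrates with a ring of ATPases, and a lid, which removes the ubiquitin. The lid, the COP9 signalosome and translation initiation factor eIF3 are relatives: each is assembled from subunits with PCI and MPN domains. In fission yeast the eIF3e protein, a PCI subunit of eIF3 also called Int6 or Yin6, has been reported to bind Rpn5, a PCI subunit of the lid.

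The RNA of 10 regulatory particle genes of Schizosaccharomyces pombe is described here, out of 6807 genes in the table. They were listed by gene ID, and earlier results of these data were known when they were chosen. Lid subunits come from 4 of them: rpn501 and rpn502, which both encode Rpn5, rpn7, and pad1 (Rpn11). Base subunits come from 5: mts4 (Rpn1), mts2 (Rpt2), rpt1, rpt3 and rpt6. The last, rpn10, encodes a ubiquitin receptor that sits between base and lid.

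The study compared wild-type cells (h- ura4-D18 leu1-32) with cells in which the eIF3e gene was disrupted by a drug resistance cassette (h- int6::kanMX6 ura4-D18 leu1-32), with 2 libraries each. Both strains are thus haploid, of 1 mating type, and carry the same uracil and leucine markers. Both were grown in rich YES medium to an optical density of 0.8 to 1.0, and rRNA-depleted total RNA was sequenced. Whether the replicates were separate cultures is not stated, so p-values measure a spread between libraries that may be technical. In RNA from whole cultures, fewer cells expressing a gene and less RNA per cell cannot be told apart.

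The libraries of wild type held 17485020 (replicate 1) and 9926548 (replicate 2) assigned reads, and those of the deletion 28254322 and 16679123. Nuclear protein-coding genes took 10.3% to 17.4% of these reads. As a check of the labels, int6 had 504 and 194 reads in the wild type against 1 and 10 in the deletion, a log2 change of −6.23. Its adjusted p in edgeR's quasi-likelihood test was 0.111, above the threshold of 0.05. With the same libraries it was 0.0486 by DESeq2's Wald test and 0.0161 in edgeR with no filter on low counts, and over all alternatives it ran from 1.21e-08 without deletion replicate 2 to 0.515 by limma on log2(RPKM + 1). The 10 proteasome genes together held between 3187 and 12727 reads per library. A single one of them held from 41 to 6461 reads in a library, and all 10 passed the filter on low counts.

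The 2 Rpn5 genes are nearly the same sequence, which bears on every value given for either. In RefSeq's assembly ASM294v3 both lie on chromosome 1, rpn501 with its coding region at chr1:1266269-1267647 on the plus strand and rpn502 at chr1:4909497-4910875 on the minus strand. Each coding region is 1332 bases long and encodes 443 residues, and the proteins are identical. The coding regions differ at 2 bases, which is 99.85% identity, and their 47-base introns are the same. The identity runs on for 77 bases before the start codon and 858 bases after the stop codon. Both differences are synonymous, T978C and T1131C, counted from the A of the start codon with the rpn501 base first. The coding-strand stretches of 41 bases around these positions are shown because they are the places in the coding region where a read can tell the genes apart, with the differing base in capitals.
rpn501, T978C, chr1:1267273-1267313, plus strand: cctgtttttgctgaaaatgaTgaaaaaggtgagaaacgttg
rpn502, T978C, chr1:4909831-4909871, minus strand: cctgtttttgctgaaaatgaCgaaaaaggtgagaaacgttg
rpn501, T1131C, chr1:1267426-1267466, plus strand: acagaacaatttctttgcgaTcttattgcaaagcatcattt
rpn502, T1131C, chr1:4909678-4909718, minus strand: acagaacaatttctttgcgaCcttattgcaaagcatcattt

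Of 1234 windows of 50 bases in the coding exons of either gene, 100 occur once in the genome, or 8.10%. For the other 8 genes every such window is unique. The ATPase genes mts2, rpt1, rpt3 and rpt6 are paralogs, yet the longest run of bases shared by any pair among these 8 coding regions is 25, between mts2 and rpt3. No source used here gives the read length, so a window of 50 bases is only an illustration.

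Rpn5 RNA was assigned almost wholly to rpn502. rpn501 was given 134 and 40.5 estimated reads in the wild-type libraries, and rpn502 was given 1608 and 543. In the deletion libraries rpn501 was given 202 and 77.4, and rpn502 2287 and 717. These fractions added up to whole numbers within 0.003 of a read: 1742, 584, 2489 and 794 reads for the pair. A division of each shared read between these 2 genes alone gives such sums. The listed transcripts differ in length, 1687 bases for rpn502 and 1540 for rpn501. Upstream, rpn502 is listed to 4911100, beyond its start codon at 4910875 and the 77 identical bases before it. If the listed positions follow the RefSeq assembly, only rpn502 has listed sequence of its own outside the coding region. The part of that sequence in the division of reads was not tested.

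The share of the pair assigned to rpn501 was 7.68% (exact Clopper-Pearson 95% interval 6.48% to 9.04%) and 6.94% (5.08% to 9.40%) in wild type. In the deletion it was 8.11% (7.07% to 9.26%) and 9.75% (7.73% to 12.0%). Each deletion value was above each wild-type value, by 1.62 percentage points between the means of 8.93% ± 1.16 and 7.31% ± 0.522 (SD, n = 2). The intervals cover counting error only and treat each assigned read as certain, which most are not. An exact two-sided permutation test gave p = 0.333, the smallest that 2 against 2 libraries allow, so no difference in this design could pass a threshold of 0.05 by that test.

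Reads across the intron were not divided in this way. The deposited junction values corresponded to 5 and 5 reads in wild type, then 6 and 4 in the deletion, and these numbers were the same for rpn501 and for rpn502. A read across this intron fits both genes, and each such read was entered under both. The junction values of the pair therefore carry no information on which gene was transcribed.

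**Figure D1:**
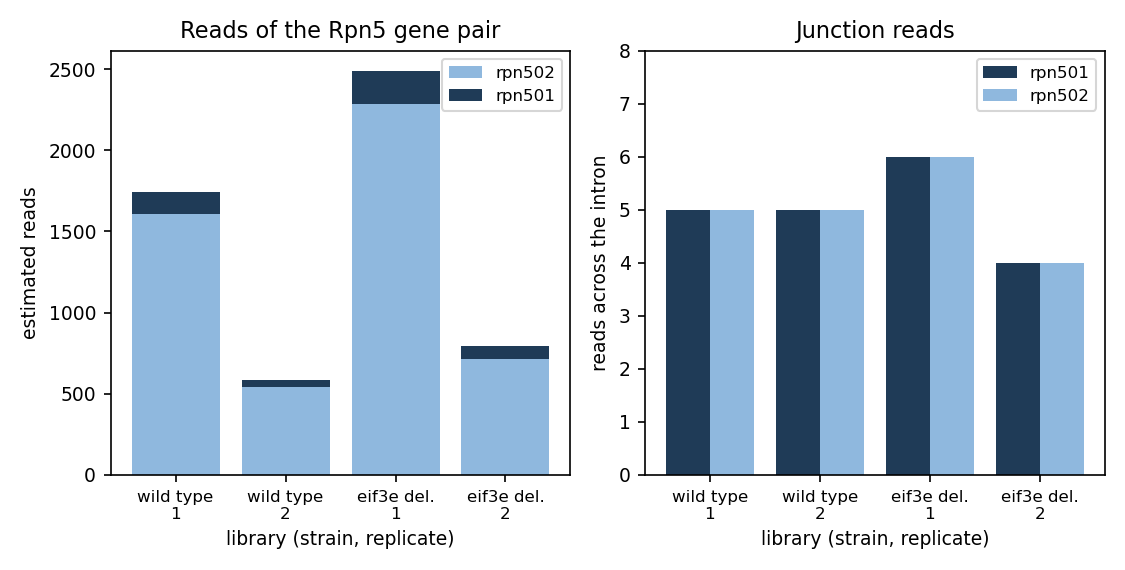
Left, estimated reads assigned to rpn502 and rpn501 in each library, stacked, with reads on the vertical axis. Right, reads across the intron for each gene; rpn501 takes 6.94% to 9.75% of the pair's reads, while the junction reads of the genes are equal in all 4 libraries, between 4 and 6.

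With the reads of the pair summed, Rpn5 RNA measured 75.3 and 68.8 CPM in wild-type cells against 70.9 and 66.8 CPM in deletion cells. CPM here is counts per 1e6 assigned reads after TMM normalization, which scales libraries so that most genes do not differ. The deletion values straddle the lower wild-type value, so the strains overlap. The means were 72.1 ± 4.60 and 68.9 ± 2.89 CPM (SD, n = 2), a log2 change of −0.07 with a 95% interval of −0.62 to 0.49. edgeR's quasi-likelihood test, adjusted by Benjamini-Hochberg over all features, gave an adjusted p of 0.949. The interval leaves room for a fall or a rise of Rpn5 RNA by less than 2-fold.

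Taken singly, rpn502 (SPAPB8E5.02c, listed on chromosome 1 at positions 4909367 to 4911100) measured 69.6 and 64.0 CPM in wild-type cells against 65.2 and 60.4 CPM in deletion cells. rpn501 (SPAC1420.03, listed at 1266194 to 1267780) measured 5.80 and 4.83 CPM in wild-type cells against 5.76 and 6.48 CPM in deletion cells. Both overlap between strains. Their log2 changes were −0.09 and 0.19, with edgeR adjusted p of 0.930 and 0.886. Since most reads do not tell the genes apart, the single values depend on how the authors divided them.

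Among the 10 genes, 0 passed edgeR's test at an adjusted p under 0.05, against 0.0169% of the 5915 features tested. That 1 feature, looked up after its values were seen, was str3, a siderophore-iron transporter gene, with a log2 change of 3.76. At an unadjusted p under 0.05 the count was also 0 of 10, against 10.1% of all features. DESeq2's Wald test, which called 1.52% of features, called 0 of the 10, and so did limma-voom, which called 0.0169%. The log2 changes were positive for 5 genes and negative for 5, with a median of 0.06 beside 0.00110 over all features. They ran from −0.26 for rpt3 to 0.56 for rpt6, and the adjusted p in edgeR's test from 0.767 to 0.988.

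None of the 10 genes separated the strains: the wild-type and deletion ranges overlapped in 10 of 10, while 41.5% of all features had ranges that did not overlap. For each of the 10 the log2 strain difference was smaller than the larger of its 2 differences between replicates, which held for 70.6% of all features. The 95% interval of the log2 change stayed within a 2-fold rise or fall for 7 of the 10. The exceptions were rpt6, whose interval reached 1.75, rpn7, whose interval reached 1.27, and rpt1, whose interval reached −1.03. A miss of the threshold therefore does not show that RNA levels were equal.

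**Figure D2:**
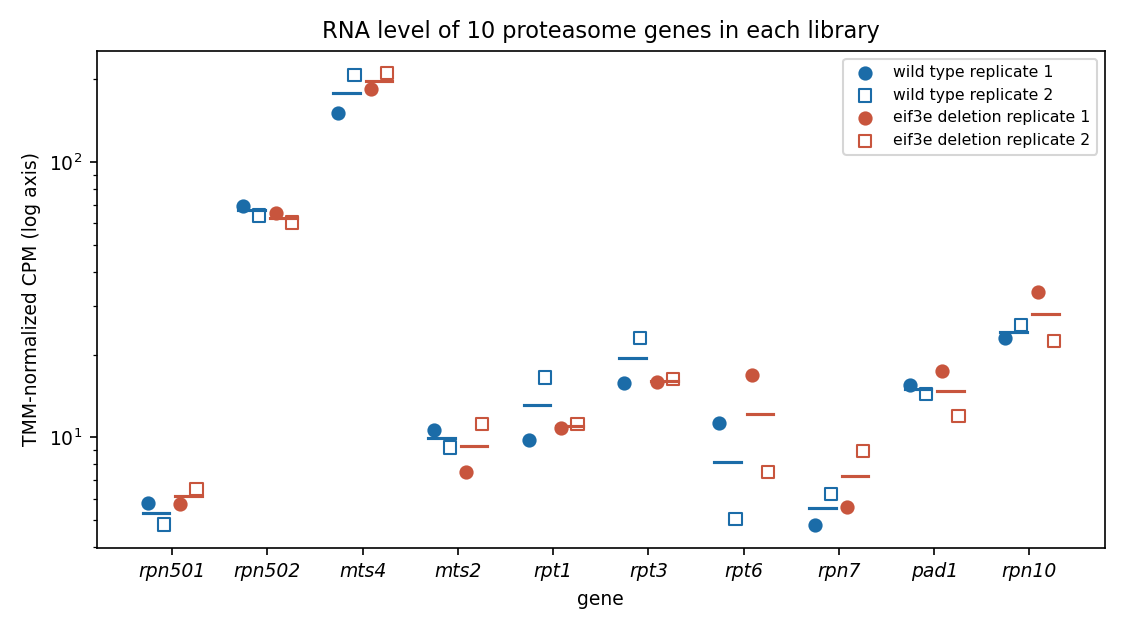
TMM-normalized CPM (log axis) of each of the 10 genes in each library, with wild type in blue, the eif3e deletion in red, circles for replicate 1, squares for replicate 2 and lines for strain means. For every gene the blue and red points overlap in range, and rpt6 has both circles above both squares.

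The other lid genes among those described here, rpn7 and pad1, showed no shared direction. rpn7 (SPBC582.07c, chromosome 2, 430393 to 431802) encodes a PCI subunit of the lid and measured 4.80 and 6.25 CPM in wild-type cells against 5.59 and 8.92 CPM in deletion cells. Deletion replicate 2 was the highest and wild-type replicate 1 the lowest, and the means of 5.52 ± 1.02 and 7.25 ± 2.36 CPM (SD, n = 2) gave a log2 change of 0.39 (95% interval −0.49 to 1.27). edgeR's adjusted p was 0.778, on 53 to 196 reads per library.

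pad1 (SPAC31G5.13, chromosome 1, 3010632 to 3012307) encodes Rpn11, the metalloprotease that cuts ubiquitin chains from substrates as they enter. It measured 15.5 and 14.4 CPM in wild-type cells against 17.5 and 12.0 CPM in deletion cells, so the deletion libraries lay on either side of the wild type. The log2 change was −0.02 (95% interval −0.71 to 0.67) with an edgeR adjusted p of 0.988. pad1 overlaps 2 neighbouring features on the same strand, so some of its reads may be theirs.

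rpn10 (SPAC637.10c, chromosome 1, 4557551 to 4558762) encodes a receptor that binds ubiquitin chains on substrates. It measured 22.9 and 25.6 CPM in wild-type cells against 33.6 and 22.4 CPM in deletion cells, where replicate 1 was the highest of the 4 and replicate 2 the lowest. The log2 change was 0.21 (95% interval −0.44 to 0.87), with an edgeR adjusted p of 0.847. Another feature overlaps it on the opposite strand, and no source used here says whether the counting used strand. The same holds for rpn502, which an opposite-strand feature also overlaps.

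In the base, mts4 was the most abundant member. mts4 (SPBP19A11.03c, chromosome 2, 2851121 to 2854100) encodes Rpn1, the scaffold on which ubiquitin shuttles and the deubiquitinase Ubp6 dock. It measured 150.3 and 207 CPM in wild-type cells against 184 and 210.0 CPM in deletion cells. Replicate 2 was the higher in both strains, and the means of 179 ± 40.0 and 197 ± 18.3 CPM (SD, n = 2) gave a log2 change of 0.14 (95% interval −0.54 to 0.82) and an edgeR adjusted p of 0.910.

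The 4 ATPase genes differed in sign. mts2 (SPBC4.07c, chromosome 2, 1197778 to 1199431) encodes Rpt2, whose tail helps to open the gate of the core particle. It measured 10.6 and 9.20 CPM in wild-type cells against 7.47 and 11.2 CPM in deletion cells, whose replicates enclosed the wild type. rpt1 (SPBC16C6.07c, chromosome 2, 4341623 to 4343422) measured 9.82 and 16.5 CPM in wild-type cells against 10.8 and 11.2 CPM in deletion cells. rpt3 (SPCC576.10c, chromosome 3, 2097289 to 2098893) measured 15.7 and 22.99 CPM in wild-type cells against 15.8 and 16.3 CPM in deletion cells. For rpt1 and rpt3 the deletion libraries were close together and wild-type replicate 2 stood above the other 3 libraries. The log2 changes were −0.10 for mts2, −0.24 for rpt1 and −0.26 for rpt3, with edgeR adjusted p of 0.940, 0.852 and 0.813. Without wild-type replicate 2 the changes of rpt1 and rpt3 were 0.17 and 0.03.

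rpt6 differed more by replicate number than by strain. This ATPase gene (SPBC23G7.12c, chromosome 2, 2121444 to 2122817) measured 11.3 and 5.07 CPM in wild-type replicates 1 and 2, and 16.8 and 7.49 CPM in deletion replicates 1 and 2. Both replicate 1 libraries were above both replicate 2 libraries. Replicate 1 exceeded replicate 2 by 1.14 on the log2 scale in wild type and by 1.16 in the deletion. The same difference over all features had a median of 0.00737 and 0. TMM normalization holds that median near 0, so it does not show how unusual a gap of this size is. The strain means of 8.18 ± 4.398 and 12.2 ± 6.59 CPM (SD, n = 2) gave a log2 change of 0.56 (95% interval −0.63 to 1.75) and an edgeR adjusted p of 0.767. Within each number the deletion was higher by almost the same amount, 0.57 on the log2 scale in replicate 1 and 0.56 in replicate 2. A strain difference of the same sign in both numbers was seen in 4 of the 10 genes, the others being rpn7, mts4 and rpn502. The share over all features was not computed, so this count does not set the 10 genes apart. Leaving out a single library sets unlike numbers against each other, so the change then also holds the gap between replicates. Leaving out replicate 1 or 2 of wild type moved that change to 1.27 or 0.13, and leaving out replicate 1 or 2 of the deletion moved it to −0.16 or 1.01. The sample titles carry a shared code for both libraries of a number, and the labels do not say what it marks. Its part in the level of rpt6 was not tested.

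The same sign of the replicate 1 to 2 difference in both strains was seen in 7 of the 10 genes. For this count too the share over all features was not computed. rpn7, mts4, rpt1 and rpt3 were lower in replicate 1 in both strains, and rpt6, pad1 and rpn502 were higher. The gaps were 0.12 and 0.11 for rpn502, whose larger gap was the smallest among the 10, and −0.37 and −0.67 for rpn7, on the log2 scale in wild type and deletion.

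**Figure D3:**
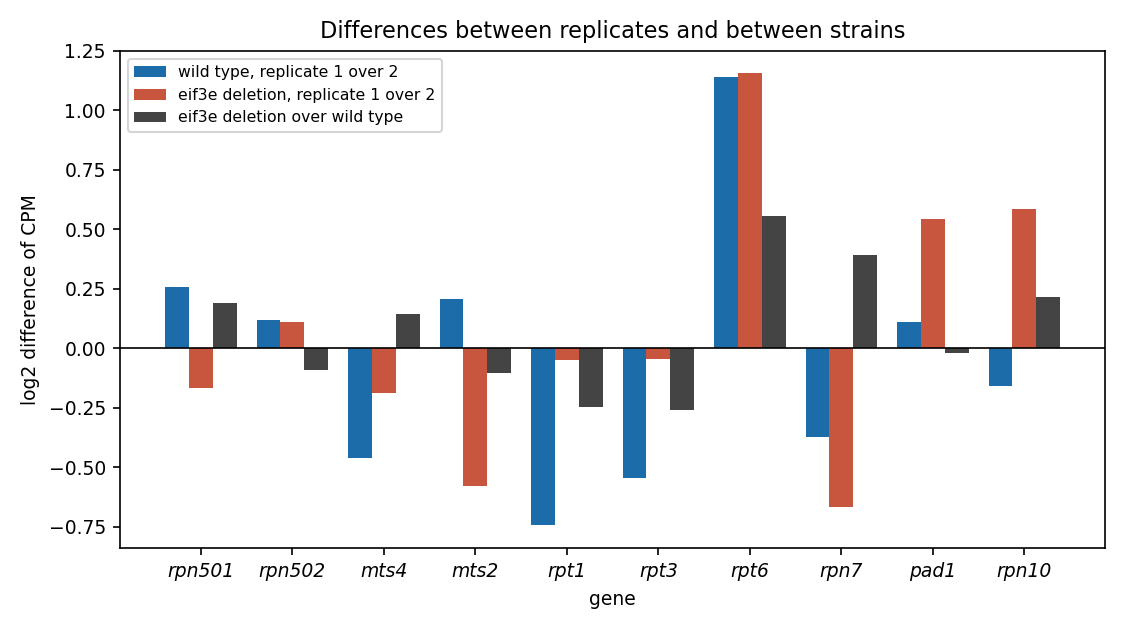
Log2 differences of CPM for each of the 10 genes: replicate 1 over replicate 2 in wild type (blue) and in the eif3e deletion (red), and the fitted deletion over wild-type change (grey). rpt6 has the tallest bars, 1.14 and 1.16 between replicates against 0.56 between strains.

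Levels per length were far from equal among these genes, of which rpn501 and rpn502 encode the same protein. Deposited RPKM, which scale reads by transcript length and library reads, allow genes to be set side by side within a library. mts4, rpn502 and rpn10 held ranks 1, 2 and 3 in all 4 libraries, and these were the 3 genes whose rank did not change. The ranks of rpn502 and rpn501 depend on how the authors divided the reads that the pair shares. mts4 had RPKM of 62.1 and 56.3 in wild type and 71.0 and 48.1 in the deletion. It stood 6.62, 8.44, 7.45 and 9.81 times above the median of the 4 ATPase genes in wild-type replicates 1 and 2 and deletion replicates 1 and 2.

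rpn502 ranged from 24.0 to 49.96 RPKM and rpn10 from 14.6 to 37.0, so these neighbours differed in every library but overlapped across libraries. Below them rpt3, pad1, rpt6, rpt1 and mts2 had mean RPKM of 10.3, 8.66, 7.84, 7.23 and 5.95. rpt3 stood above rpt1 in all 4 libraries, by 1.34 to 1.55 times, and above mts2 in all 4, by 1.38 to 2.37 times, although their ranges across libraries overlapped. The other pairs among these 5 changed places from library to library. rpn7 at 4.10 and rpn501 at 3.52 were lowest in the mean, and rpn502 stood 5.65 to 12.1 times above rpn7, its fellow PCI subunit gene of the lid. The highest member exceeded the lowest by 15.1 to 22.7 times within a library. The highest was mts4, and the lowest was rpn7 in wild-type replicate 1 and rpn501 in the other libraries. Over all features tested the mean RPKM put mts4 at percentile 90.7, rpn502 at 87.1, rpn10 at 83.6 and rpn501 at 47.1. For rpn502 and rpn501 these levels and ratios also depend on the division of the reads they share.

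**Figure D4:**
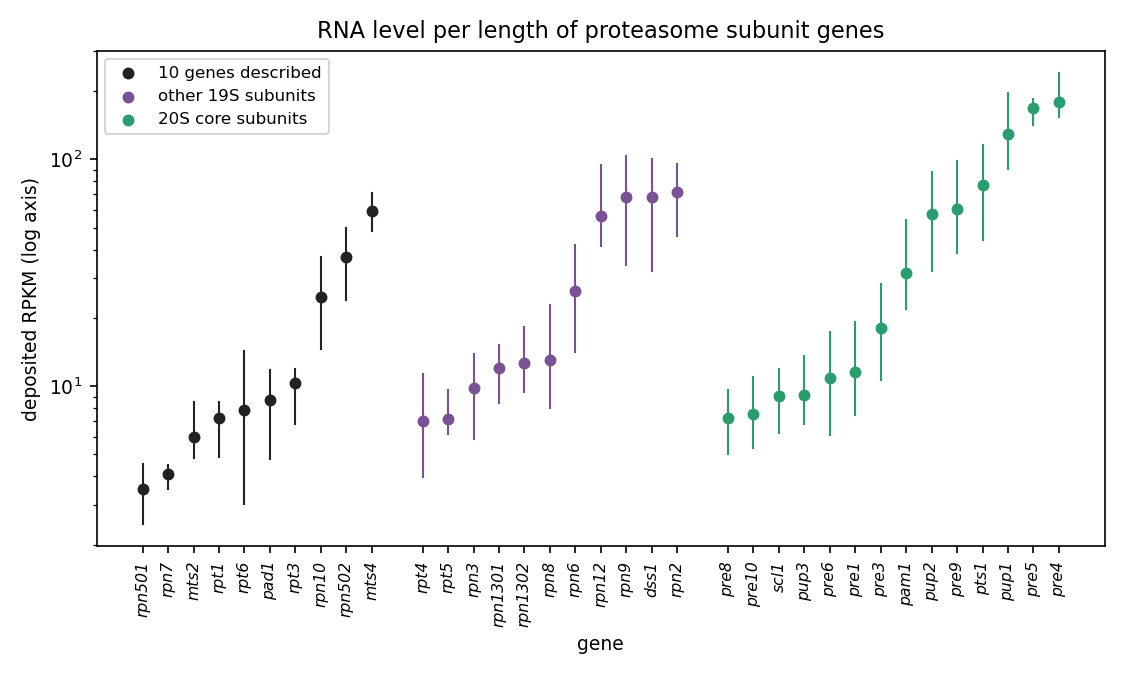
Deposited RPKM (log axis) of proteasome subunit genes, with points for the mean of the 4 libraries and lines for their range: the 10 genes described here, the other 19S subunits and the 20S core subunits. Mean levels run from 3.52 for rpn501 to 59.3 for mts4 among the 10 genes and reach 179 for pre4 in the core.

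Spliced reads were few. RefSeq gives introns to 7 of the 10 genes, and the deposited junction values corresponded to whole reads within 0.01. rpn10, with 3 introns, had 19 and 3 junction reads in wild type and 14 and 5 in the deletion, in all 41 of 2193 reads (1.87%). rpt1, with 2 introns, had 1, 3, 5 and 2 in the same order of libraries, 11 of 880 reads (1.25%). mts4, with 1 intron, had 6 and 4 in wild type and 22 and 0 in the deletion, 32 of 14186 reads (0.226%). The deletion libraries of mts4 were thus the highest and the lowest.

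mts2 and rpt6 had 1 junction read each, in wild-type replicate 1, and 0 in the other libraries, where a count of 0 allows up to 3 reads. In mts2 the first coding exon in RefSeq is 3 bases long, the start codon alone. rpt3, rpn7 and pad1, which have no annotated intron, were listed at 0 in all 4 libraries. These numbers are too small for a comparison of splicing between the strains.

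The other genes of the particle also gave 0 calls. Of 11 other 19S subunit genes, 0 passed edgeR's adjusted threshold in either direction and 0 had an unadjusted p under 0.05. Their median log2 change was 0.14, with 8 positive, beside 2962 of the 5915 features tested. rpn12, a lid subunit gene, measured 40.0 and 63.0 CPM in wild-type cells against 93.9 and 69.2 CPM in deletion cells, and the strains did not overlap. Its log2 change was 0.67 with an edgeR adjusted p of 0.521, beside −0.65 for replicate 1 over 2 in wild type. rpn12 overlaps features on both strands, so its level is uncertain. rpn1302 and rpn1301, a pair of genes for the ubiquitin receptor Rpn13, had log2 changes of 0.69 and 0.49. rpn8, the MPN partner of Rpn11, had 0.56, and rpn2, the second large scaffold of the base and the most abundant of this list, had −0.15.

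Of the 14 core particle genes, 0 passed the adjusted threshold and 0 had an unadjusted p under 0.05. The median log2 change was 0.38, with 11 positive, beside 2962 of the 5915 features tested. pup1, which encodes the trypsin-like beta 2 subunit, measured 149 and 165 CPM in wild-type cells against 251 and 227 CPM in deletion cells, higher in both deletion libraries. Its log2 change was 0.61 and edgeR's adjusted p 0.497. pre1, pam1 and pre9 (beta 4, beta 6 and alpha 3) had log2 changes of 0.64, 0.63 and 0.46, and pre4 (beta 7), the most abundant, had 0.41.

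Of these 25 other subunit genes, 12 were higher in both deletion libraries and 1 lower, beside 20.1% and 21.4% of all features, whereas among the 10 genes described here the counts were 0 and 0. The difference between the lists was not tested. In 7 of the 14 core genes both deletion libraries were higher. An overlap with a feature on the same or the opposite strand was found for 7 of the 11 and 8 of the 14 genes. It was found for 3 of the 10 described here, and for 3929 of the 5915 features tested.

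**Figure D5:**
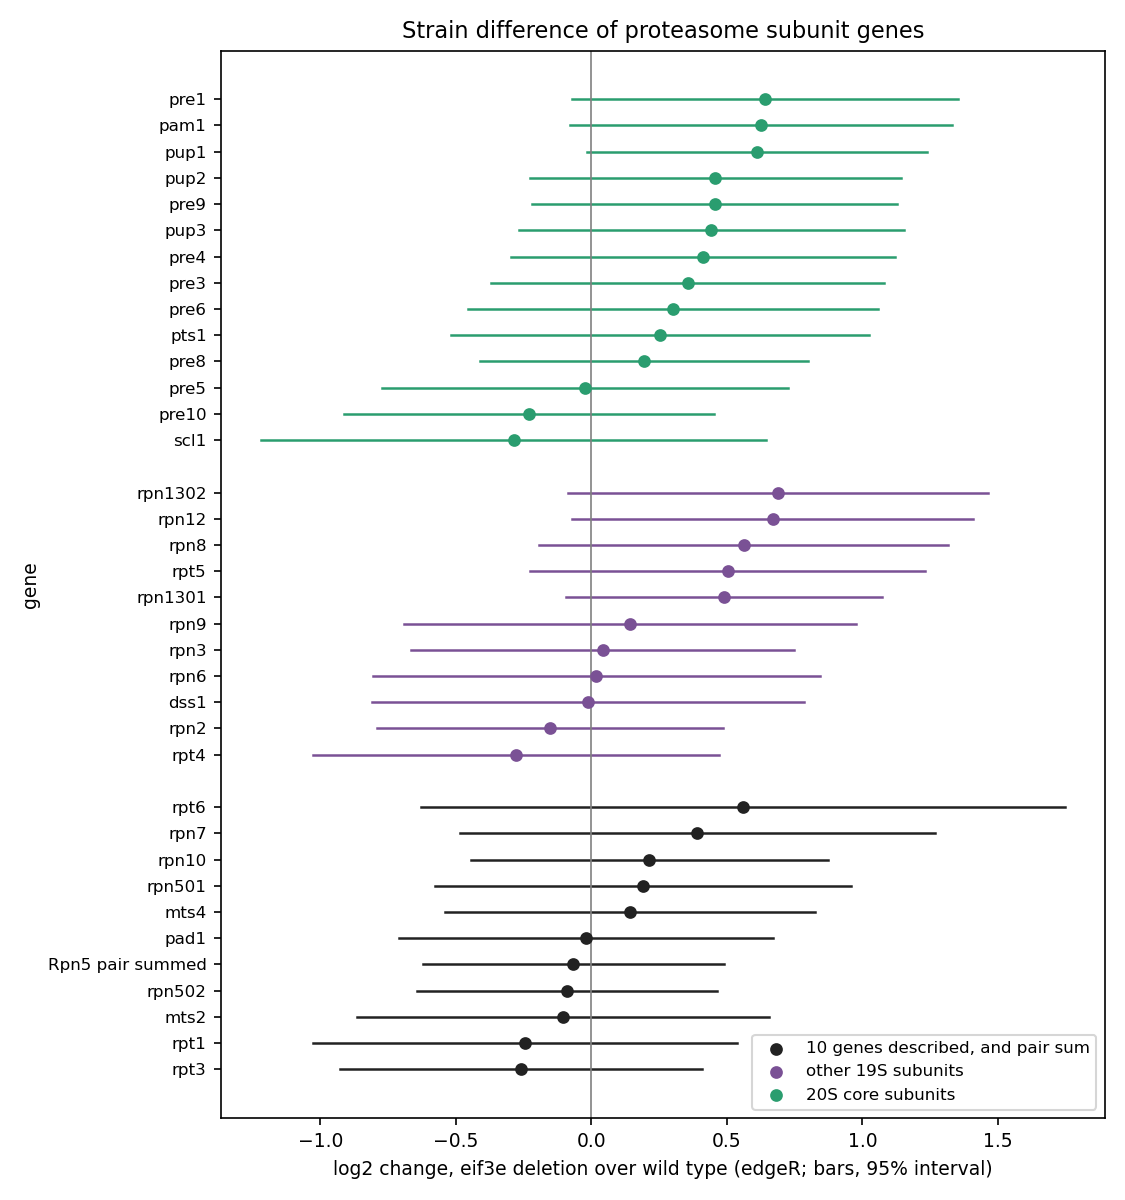
Log2 change of the eif3e deletion over wild type from edgeR for 35 proteasome subunit genes and for the summed Rpn5 pair, with 95% intervals as bars. The 10 genes (black) lie on both sides of 0, from −0.26 to 0.56, and every interval in the plot spans 0.

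Genes around the particle gave 0 calls as well. Among 8 assembly, tethering and associated factors 0 passed the adjusted threshold and 1 had an unadjusted p under 0.05. This was fub1, a gene for a PI31-type proteasome inhibitor domain protein, at 0.606 and 1.41 CPM in wild-type cells against 3.79 and 3.54 CPM in deletion cells. Its log2 change was 1.94 and edgeR's adjusted p 0.357. fub1 overlaps features on both strands, so its level is uncertain. uch2, a gene for a proteasome-bound deubiquitinase, was lower in both deletion libraries with a log2 change of −0.64. nas6 and cut8, for an assembly chaperone and the factor that tethers proteasomes at the nuclear envelope, had 0.33 and −0.36, and ubp6 had 0.02.

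Among 13 ubiquitin, shuttle and Cdc48 genes 0 passed and 0 had an unadjusted p under 0.05, with a median log2 change of 0.04. ubi4, the polyubiquitin gene, measured 666 and 737 CPM in wild-type cells against 1148 and 1265 CPM in deletion cells, higher in both deletion libraries. Its log2 change was 0.78 and edgeR's adjusted p 0.497. cdc48, for the segregase that extracts ubiquitylated proteins, had a log2 change of 0.55. ubi2 and ubi5, ubiquitin fused to ribosomal proteins, had −0.43 and −0.03, and the shuttle gene rhp23 had −0.33. ubi2 and ubi5 have sister genes with the same ubiquitin part, so their reads may be shared. The estimated counts of ubi2 were whole in every library. Those of ubi5 held fractions in every library, such as 33701.6 in wild-type replicate 1.

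The COP9 signalosome, a relative of the lid that trims Nedd8 from cullins, had a median RPKM of 2.36 over its genes. Of its 6 genes 0 passed and 0 had an unadjusted p under 0.05. All 6 were positive, beside 2962 of the 5915 features tested, with a median log2 change of 0.27. In all 6 the log2 change was smaller than the larger difference between replicates. csn2 had only 8 reads in wild-type replicate 2 and 13 in deletion replicate 2. csn5, the catalytic MPN subunit gene, had 0.61 at a mean of 1.32 RPKM, and csn71, csn2 and csn4 had 0.35, 0.33 and 0.21. The range of mean RPKM was 1.05 to 14.4, against 3.52 to 59.3 for the 10 proteasome genes.

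The genes whose profile over the 4 libraries was closest to the median of the 10, by Euclidean distance of centred log2 CPM, were rpb4, taf5 and cyp4. Their distances were 0.0883, 0.0884 and 0.0897. That median profile was nearly flat, between −0.0897 and −0.00254 in every library, and 4 libraries allow many genes to come this close.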

How the data were processed

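Per the labels' protocols, rRNA-depleted RNA of 4 libraries was cut with RNase III and sequenced on a SOLiD 4. Partek 6.0, TopHat 1.4.1, Bowtie 1.1.0 and SAMtools appear in the submitters' processing notes, with no roles. No source used here gives the genome build, annotation release or strand setting, so positions are printed as listed, with the end 1 base before the stop value. The authors deposited 1 table of 6808 features with estimated counts per library, not normalized, of which 89.6% to 91.9% were whole. The deposited RPKM and junction RPKM, per the file headers, are scaled by transcript length and library reads. The transcript length in bases and a chi-square score with its p-value were deposited beside them. There were 0 columns that could not be tied to a library.

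Estimated counts were rounded. The main test was edgeR 4.0.16 in R 4.3.3 (TMM, filterByExpr, glmQLFit, glmQLFTest, two-sided, strain only, Benjamini-Hochberg over 5915 features, threshold 0.05). Intervals are 95%, from the F statistic and its degrees of freedom. Rpn5 reads were also summed before the fit. Alternatives were DESeq2 1.42.0, limma-voom and limma 3.58.1 on log2(RPKM + 1) and log2(RPKM + 0.1), RLE factors, depth from protein-coding genes, no filter, a replicate block and leaving out each library. Junction reads were recovered from junction RPKM, RPKM and counts. Symbols, introns and sequences came from RefSeq ASM294v3 (97.5% of IDs matched), read by gene ID and RefSeq's own coordinates. Of the list symbols 18 were absent, and 3 genes that share a symbol with another were left out.

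Data were simulated for this comparison with 5915 features and 200 changed genes. Every simulated feature had the same dispersion, 0.111, and replicate number had no effect, which the real libraries need not share. On these data edgeR recovered 7.46% of 2-fold, 63.1% of 4-fold and 94.1% of 8-fold changes, with 3.64% of calls false. The rates hold for that setting and may differ for the real libraries. The members and lists were chosen with earlier results of these data known. The naming rule took all 10 genes, int6, the 4 genes with the smallest p and the 1 with the highest RPKM in each list, and the 3 closest profiles.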

Additional observations from a re-analysis of the deposited data

How the results depend on the processing

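The count of 0 among the 10 genes, and of 0 among the 52 genes of the other lists, held under every alternative tried, and the lowest adjusted p of any of the 10 was 0.200, for rpt6 without deletion replicate 2. Among the genes named from the other lists, ubi4 came closest to a call in the fits that kept every library. Its adjusted p in edgeR's test with the replicate block was 0.0685. With 2 libraries per strain, simulated 2-fold changes were mostly missed. Over all genes the number of calls was 1, but 90 by DESeq2, 20 with no filter, 193 with the replicate block, 0 by limma on RPKM with either pseudocount, and 0 to 242 when a library was left out; the cause was not tested. The labels do not say what the replicate number marks. Deviations of same-numbered libraries correlated at 0.24 over 5915 features, and the block changed no call among the 10 genes, with rpt6 lowest at an adjusted p of 0.361, but called int6 (0.00315); it gave the summed Rpn5 pair a log2 change of −0.07 (adjusted p 0.904). The pair's log2 change stayed negative under all alternatives, from −0.24 to −0.00304. The median of the 10 ran from −0.13 without deletion replicate 1 to 0.10 without wild-type replicate 2, so it has no settled sign. limma on RPKM shifted the median of all features by −0.11 (pseudocount 1) and −0.19 (0.1) and turned mts4 to −0.017 in both, ubp6 to −0.15 and −0.16, taf5 to −0.16 and −0.17, and cyp4 to −0.16 in both. Depth from protein-coding genes turned ubp6 to −0.011, taf5 to −0.025 and cyp4 to −0.012.

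Signs also turned when 1 library was left out, the log2 change then running from −0.074 to 0.39 for mts4, −0.41 to 0.17 for mts2, −0.59 to 0.17 for rpt1, −0.52 to 0.031 for rpt3, −0.16 to 1.27 for rpt6, −0.32 to 0.23 for pad1 and −0.11 to 0.48 for rpn10. The same ranges were −0.13 to 0.16 for ubp6, −0.39 to 0.26 for ubi5, −0.29 to 0.77 for csn71, −0.69 to 1.22 for csn2, −0.054 to 0.023 for rpb4, −0.043 to 0.058 for taf5 and −0.025 to 0.064 for cyp4.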

Other observations

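The authors' deposited table gives each feature a chi-square score and p-value. With 3 degrees of freedom the score gives back the p to within 1% for 99.5% of features with a nonzero p, as a test among the 4 libraries would, and not one between the strains. Of the 10 proteasome genes, 9 had a p under 0.05 in the authors' deposited table, as did 90.7% of all features. The exception was rpn7, with a chi-square of 2.50 and p = 0.475 in the authors' deposited table. rpt6, whose level differed most by replicate number, had a chi-square of 278 in the authors' deposited table, and rpn502 had 357. Nuclear protein-coding genes took 17.4% and 12.0% of reads in wild type and 16.2% and 10.3% in the deletion, and the RPKM of rpn502 was 49.96 and 30.3 in wild type and 43.7 and 24.0 in the deletion. The part of these shares in the score was not tested.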
